A study of Oryctolagus cuniculus with 34 samples.

Results

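ADIPOQ (ENSOCUG00000026268), LIPE (ENSOCUG00000000017) and CD36 (ENSOCUG00000002492) are 3 of the 23669 genes counted by RNA sequencing in rabbit supraspinatus, a shoulder muscle of the rotator cuff. They were taken by gene identifier for what their products do in fat cells, with earlier results of these data known. All 3 passed the filter on low counts, which left 12937 genes to test. The animals were female New Zealand White rabbits of about 6 months, and every left supraspinatus tendon was cut (tenotomy) and sutured back to bone 8 weeks later. Muscle of the left, repaired shoulder and of the right shoulder of the same rabbit was harvested at 1, 2, 4 or 8 weeks after repair, from 4 rabbits per time point but 5 at 2 weeks. The right shoulder served as control and is a sham with a skin cut in the sample labels but unoperated in the published methods. No group was left torn without repair, so tenotomy and repair cannot be told apart here, and each library comes from 1 piece of the posterior lateral muscle. The 1-week and 8-week libraries carry titles of one series and the 2-week and 4-week libraries those of another, so time and library series cannot be told apart across them.

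ADIPOQ encodes adiponectin, a hormone that fat cells secrete and that acts through receptors on muscle and liver to favour fatty acid oxidation. LIPE encodes hormone-sensitive lipase, which hydrolyses diacylglycerol in the stepwise breakdown of stored triglyceride (lipolysis). CD36 is a membrane protein that helps long-chain fatty acids into the cell, and it is carried by fat cells but also by muscle fibres, endothelium of small vessels and macrophages. Fat accumulates inside the rotator cuff muscles after a tendon tear, which is why genes of these cells are followed in models of this injury. In whole muscle, fewer cells of a type and less RNA per cell cannot be told apart.

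Total counts on genes ran from 9220035 to 28395188 over the 33 libraries used, with a median of 19343431 in the 15 libraries of 1 and 8 weeks and 10625163 in the 18 of 2 and 4 weeks. The repaired muscle of rabbit 3 at 8 weeks was left out. The published methods drop such a library after quality control. It held 8756033 counts and had 8701 genes with a CPM (counts scaled to a common library total) over 1. Its paired control stayed in, so 16 rabbits had both shoulders. ADIPOQ had at least 609 counts and CD36 at least 651 in each library used, and LIPE between 58 and 2486, so counting error was largest for LIPE. Of the 14 muscle fibre markers 4 could be matched to an identifier (ATP2A1, DES, MYOM2 and TNNT3), and their summed level was 6367 to 70033 CPM, each library holding all 4. None of the 7 adipocyte markers, such as FABP4 and PLIN1, could be matched to an identifier. The amount of fat tissue in a piece could therefore not be read from markers. The published study quantified fat by histology in the same animals, and those values were not used here. Levels are CPM scaled by the trimmed mean of M values (TMM), and they are compared within a gene only, because no gene lengths were used.

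All 3 genes were higher in repaired than in control muscle on average over the 4 time points. The mean log2 fold change (log2FC, repair against control) was 1.33 ± 0.21 (SE) for ADIPOQ, 1.58 ± 0.29 for LIPE and 0.72 ± 0.13 for CD36, with limma adjusted p = 8.50e-05, 0.000296 and 0.000236 over all genes. The 3 of 3 genes called higher stand beside 22.4 percent of the genes tested in this contrast; a gene is called at an adjusted p under 0.05. The calls of all 3 remained in each of 11 settings tried and with each of the 33 libraries left out in turn. ADIPOQ was higher in the repaired shoulder of 16 of 16 rabbits, LIPE in 15 and CD36 in 14. Of all genes tested, 2.49 percent were higher in 16 of 16 rabbits, 6.79 percent in at least 15 and 13 percent in at least 14. The ratio of the shoulders ran from 1.25 to 5.96 for ADIPOQ (median 2.59), from 0.666 to 11.4 for LIPE (median 2.90) and from 0.715 to 4.59 for CD36 (median 1.60). The exceptions were rabbit 1 at 8 weeks for LIPE, and rabbits 1 and 59 for CD36; scaled by total counts alone, CD36 was higher in rabbit 59 too, which gave 15 of 16 rabbits. That scaling moved the median log2FC of all genes to 0.47, 0.29, 0.32 and 0.11 at 1, 2, 4 and 8 weeks, from 0.05, 0.06, 0.05 and 0.01 with TMM.

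**Figure D1:**
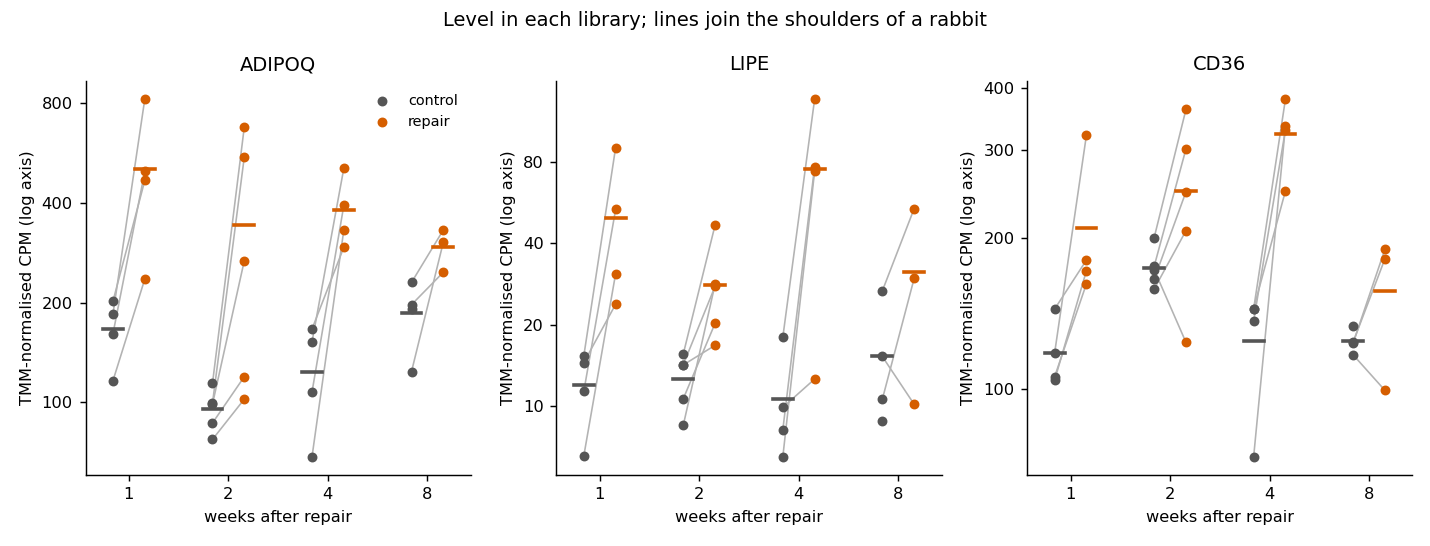
TMM-normalised CPM (log axis) of ADIPOQ, LIPE and CD36 by weeks after repair. Each point is 1 library, grey lines join the control and repaired shoulder of a rabbit and horizontal bars are group means; the ADIPOQ line rises in 16 of 16 rabbits, while LIPE falls in rabbit 1 and CD36 in rabbits 1 and 59.

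At 1 week ADIPOQ was at 161, 185, 202 and 116 CPM in the control muscle of rabbits 5, 6, 7 and 8 and at 498, 825, 468 and 236 CPM in their repaired muscle. Every repaired muscle lay above every control, rabbit 6 highest and rabbit 8 lowest. The group means were 507 ± 242 CPM (SD, n = 4) and 166 ± 37.3 CPM (n = 4), a log2FC of 1.51 ± 0.47 (limma adjusted p = 0.0338). Of all genes tested, 6.81 percent were called higher at 1 week and 16.1 percent had every repair library above every control library.

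LIPE at 1 week was at 6.56, 15.4, 14.5 and 11.4 CPM in the controls of rabbits 5, 6, 7 and 8 and at 30.9, 90.5, 23.8 and 53.5 CPM after repair. The groups did not overlap, and rabbit 6 was again the highest. Its log2FC of 1.90 ± 0.57 was called (limma adjusted p = 0.0287). CD36 was at 104, 118, 144 and 106 CPM in the same controls and at 172, 322, 181 and 162 CPM after repair, which also left no overlap. Its log2FC of 0.78 ± 0.27 narrowly missed the call (limma adjusted p = 0.0515) and passed it with the rabbit as a block (log2FC 0.77, adjusted p = 0.0353), a fit in which each repaired shoulder is set against the other shoulder of the same animal. With the block 14.8 percent of all genes were called higher at 1 week, against 6.81 percent without it.

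The 1-week calls of ADIPOQ and LIPE lay close to the threshold, and most single libraries, of either shoulder, ended one when left out. The number of all genes called at 1 week fell too, from 1771 to between 593 and 1763. ADIPOQ lost its call without the control library of rabbit 5, 7 or 8 or the repair library of rabbit 5, 6 or 7, with log2FC of 1.51, 1.60, 1.34, 1.46, 1.24 and 1.5 in that order and adjusted p between 0.0573 and 0.104. LIPE lost its call without the control library of rabbit 5, 7 or 8 or the repair library of rabbit 6 or 8, with log2FC of 1.66, 2.03, 1.89, 1.55 and 1.80 and adjusted p between 0.0518 and 0.0917. CD36 gained the call without the repair library of rabbit 8 (log2FC 0.89, adjusted p = 0.0494).

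At 2 weeks the 3 genes ranked the rabbits differently. ADIPOQ was at 99.2, 86.4, 98.6, 114 and 77.1 CPM in the controls of rabbits 59, 60, 61, 62 and 64 and at 552, 119, 268, 679.8 and 102 CPM in their repaired muscle. Rabbits 59 and 62 stood far above the others, and the repaired muscle of rabbit 64 lay below the control muscle of rabbit 62. The means were 344 ± 260.1 CPM (n = 5) after repair and 95.1 ± 14 CPM (n = 5) in controls, a log2FC of 1.43 ± 0.36 (limma adjusted p = 0.0149), where 7.95 percent of all genes were called higher. The call was lost without the repair library of rabbit 59 (log2FC 1.19, adjusted p = 0.0682) or of rabbit 62 (log2FC 1.10, adjusted p = 0.05004), and with the 2-week libraries fitted alone (adjusted p = 0.173).

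LIPE at 2 weeks was at 14.2, 15.6, 14.3, 8.52 and 10.7 CPM in the controls of rabbits 59, 60, 61, 62 and 64 and at 16.8, 46.9, 27.8, 28.3 and 20.3 CPM after repair. No repaired muscle fell into the control range, as was the case for 4.1 percent of all genes, yet rabbit 59, with the second-highest ADIPOQ, had the lowest LIPE of the repaired muscles. The log2FC of 1.07 ± 0.54 was not called (limma adjusted p = 0.155) but was with the rabbit as a block (log2FC 1.11, adjusted p = 0.0322). With the block 19.2 percent of all genes were called higher at 2 weeks, against 7.95 percent without it. CD36 was at 173, 165, 176, 200.4 and 158 CPM in controls and at 124, 248, 302, 362 and 207 CPM after repair. The repaired muscle of rabbit 59 was below every control and the other 4 were above every control. The CD36 log2FC was 0.44 ± 0.23 (limma adjusted p = 0.168).

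At 4 weeks CD36 was the 1 gene of the 3 to be called. It was at 137, 73.0, 144 and 145 CPM in the controls of rabbits 63, 66, 67 and 68 and at 329.9, 335, 379.9 and 249 CPM after repair, with no overlap. The means were 323 ± 54.6 CPM (n = 4) and 125 ± 34.6 CPM (n = 4), a log2FC of 1.41 ± 0.26 (limma adjusted p = 0.0135). By p-value it ranked 6 of 12937 genes, at a time point where 0.0773 percent of genes were called higher. Without the repair library of rabbit 63, 66 or 67 or the control library of rabbit 66 the call was lost, with log2FC of 1.39, 1.38, 1.33 and 1.17 and adjusted p of 0.0913, 0.0678, 0.0912 and 0.0769, and the 4-week libraries fitted alone gave an adjusted p of 0.111.

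The log2FC of ADIPOQ and LIPE at 4 weeks was larger than that of CD36 but came with a wider spread. ADIPOQ was at 152, 68.3, 107 and 166 CPM in the controls of rabbits 63, 66, 67 and 68 and at 509, 332, 393 and 294 CPM after repair. These groups did not overlap, as was the case for 5.19 percent of all genes. The ADIPOQ log2FC was 1.68 ± 0.41 (limma adjusted p = 0.0784), and 1.69 with the rabbit as a block, which was called (adjusted p = 0.0144). With the block 1.81 percent of all genes were called higher at 4 weeks, against 0.0773 percent without it. LIPE was at 8.19, 6.50, 18.0 and 9.91 CPM in controls and at 77.0, 74.2, 137 and 12.6 CPM after repair. Rabbit 68 stood apart from the other repaired muscles and lay inside the control range. The LIPE log2FC was 2.48 ± 0.63 (limma adjusted p = 0.0805), and 2.70 with the rabbit as a block (adjusted p = 0.00447). Without the repair library of rabbit 68 both were called, LIPE at 3.20 (adjusted p = 0.00156) and ADIPOQ at 1.80 (adjusted p = 0.0325).

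At 8 weeks none of the 3 genes was called, and 0.00773 percent of all genes were called higher. ADIPOQ was at 197, 124, 192 and 230.0 CPM in the controls of rabbits 1, 2, 3 and 4 and at 247, 305 and 331 CPM in the repaired muscle of rabbits 1, 2 and 4. The groups still did not overlap, which 4.24 percent of genes shared. The ADIPOQ log2FC was 0.69 ± 0.47, with a 95% interval of -0.28 to 1.66. LIPE was at 15.3, 10.6, 8.84 and 26.7 CPM in controls and at 10.2, 29.7 and 53.8 CPM after repair, and CD36 at 117, 124, 134 and 123 CPM in controls and at 99.2, 182 and 190.2 CPM after repair. For both genes the repaired muscle of rabbit 1 lay below its own control and rabbits 2 and 4 lay above theirs. The log2FC was 0.87 ± 0.59 for LIPE (interval -0.33 to 2.07) and 0.26 ± 0.28 for CD36 (interval -0.32 to 0.83), and the limma adjusted p was 0.9994 for each of the 3 genes. At an unadjusted p under 0.05 limma also called 0 of the 3 at 8 weeks, against 397 of all genes in either direction, and 1.78 percent of all genes were higher at that p. The fits with edgeR, DESeq2 and limma with the block called 0 of the 3 as well, beside 0.00773, 0.0232 and 0.00773 percent of all genes called higher. Without the repair library of rabbit 1 the 8-week log2FC was 1.49 for LIPE and 0.58 for CD36, without that of rabbit 4 it was 0.34 and 0.095, and CD36 was at 0.11 without that of rabbit 2, none of them called.

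**Figure D2:**
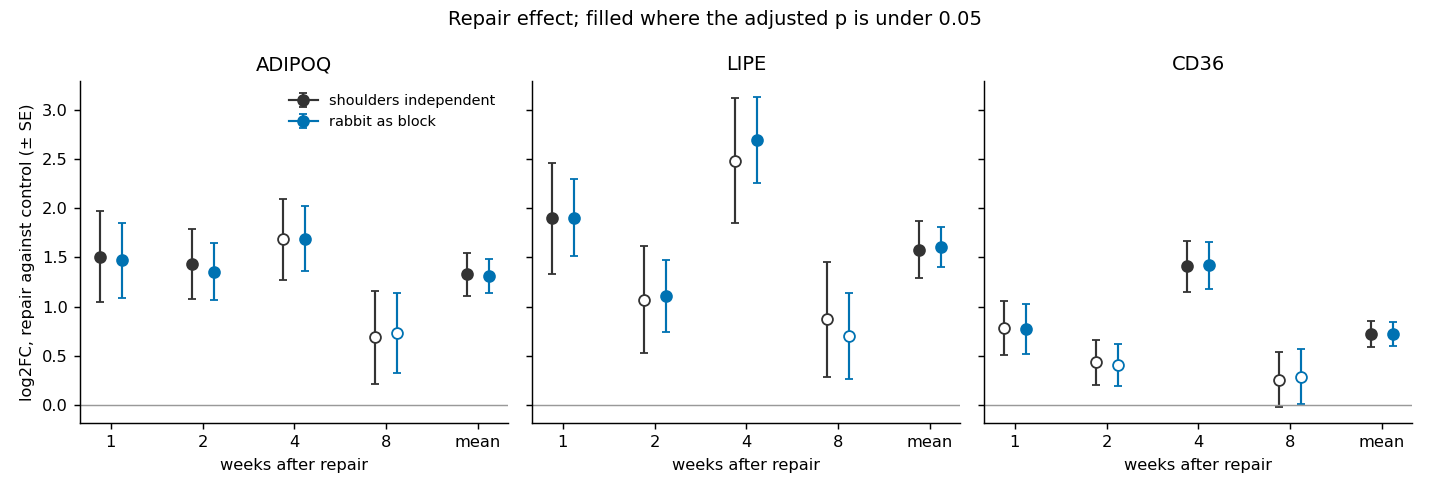
log2FC of repair against control (± SE) by weeks after repair and as the mean over the time points, for each gene, with the shoulders taken as independent (black) and with the rabbit as a block (blue); filled points have an adjusted p under 0.05. All 3 genes have an open point at 8 weeks in both fits, and at 4 weeks CD36 is filled in both while ADIPOQ and LIPE are filled with the block alone.

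The effects at different time points could not be told apart. The effect at 8 weeks minus that at 1 week was -0.82 ± 0.66 for ADIPOQ, -1.03 ± 0.81 for LIPE and -0.53 ± 0.39 for CD36 (log2, limma adjusted p = 0.835, 0.835 and 0.831). The effect at 4 weeks minus that at 2 weeks was 0.25 ± 0.54 for ADIPOQ, 1.41 ± 0.84 for LIPE and 0.97 ± 0.34 for CD36 (log2, limma adjusted p = 1.00 for each). In limma 0 of 12937 genes passed either test, with 683 at an unadjusted p under 0.05 between 8 and 1 week and 359 between 4 and 2 weeks; the unadjusted p of CD36 between 4 and 2 weeks was 0.00861, the only one of these 6 under 0.05. DESeq2 called 3 genes between 8 and 1 week and 1 between 4 and 2 weeks, none of them these 3, and edgeR called 0 in both. So a call at one time point and a miss at another is not a shown difference for these genes.

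In order of mean level, ADIPOQ ran from repair at 1 week (507 CPM) through repair at 4 weeks (382 ± 94.2), 2 weeks (344) and 8 weeks (294 ± 43.2) to the controls of 8 weeks (186 ± 44.6), 1 week (166), 4 weeks (123 ± 44.5) and 2 weeks (95.1). The lowest repair group and the highest control group differed by more than either SD, and every other pair of neighbours by less than the larger of their SDs. LIPE ran from repair at 4 weeks (75.2 ± 50.7 CPM), 1 week (49.7 ± 30.0), 8 weeks (31.2 ± 21.9) and 2 weeks (28 ± 11.6) to the controls of 8 weeks (15.4 ± 8.04), 2 weeks (12.7 ± 2.96), 1 week (11.9 ± 3.99) and 4 weeks (10.7 ± 5.10). Here too the step from the repair groups to the controls was the 1 step larger than the SDs beside it. CD36 ran from repair at 4 weeks (323 CPM), 2 weeks (248 ± 90.8) and 1 week (209 ± 75.4) over the controls of 2 weeks (174 ± 16) and repair at 8 weeks (157 ± 50.4) to the controls of 4 weeks (125), 8 weeks (124 ± 6.94) and 1 week (118 ± 18.6). No neighbours in the CD36 order differed by more than the larger SD, and its 2-week controls lay above its 8-week repair group.

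Among controls, which had no operation on the tendon, ADIPOQ was higher in the 1-week and 8-week libraries than in those of 2 and 4 weeks by 0.70 ± 0.28 on the log2 scale, without passing the test (limma adjusted p = 0.0846). The same difference was 0.21 ± 0.44 for LIPE (adjusted p = 0.794) and -0.27 ± 0.17 for CD36 (adjusted p = 0.318). Of all genes, 7.87 percent were called higher and 7.58 percent lower in this comparison, in which time point and library series cannot be told apart.

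The shoulder differences of LIPE and CD36 went together from rabbit to rabbit, though not in size. The LIPE ratio was above the CD36 ratio in 14 of 16 rabbits. Over 16 rabbits the within-rabbit log2 differences (repaired minus control, CPM + 0.1) had Pearson's r = 0.858 (permutation p = 4.00e-05, adjusted over the 3 pairs of genes 0.00012) and Spearman's rho = 0.788 (permutation p = 0.0006, adjusted 0.0018). The relation held in the libraries of 1 and 8 weeks (r = 0.885, n = 7, exact permutation p = 0.00318), in those of 2 and 4 weeks (r = 0.852, n = 9, exact permutation p = 0.00132) and without rabbits 1 and 66, the farthest from the median of LIPE (r = 0.772, permutation p = 0.00068). With the mean of each time point removed, a choice made after the values were seen, r was 0.787 (permutation p = 0.00106 within time points). Both genes of a rabbit come from the same pair of libraries and share their scaling factors.

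The relations of ADIPOQ with the other genes were weaker and depended on rabbit 59. With LIPE, r was 0.504 (permutation p = 0.04996, adjusted 0.0749) and rho 0.497 (permutation p = 0.0557, adjusted 0.0557). With CD36, r was 0.397 (permutation p = 0.130, adjusted 0.130) and rho 0.527 (permutation p = 0.0384, adjusted 0.0557). Neither passed the correction over 3 pairs. In rabbit 59 the repaired muscle held 5.56 times the ADIPOQ of its control but 1.18 times the LIPE and 0.715 times the CD36. Without rabbit 59, a choice made after its values were seen, r was 0.707 with LIPE (permutation p = 0.00354) and 0.742 with CD36 (permutation p = 0.00082), and without rabbits 59 and 62, the farthest from the median of ADIPOQ, it was 0.797 (permutation p = 0.0007) and 0.838 (permutation p = 6.00e-05). In the 1-week and 8-week libraries r was 0.799 with LIPE (exact permutation p = 0.0262, n = 7) and 0.830 with CD36 (exact permutation p = 0.0290, n = 7). In those of 2 and 4 weeks, which hold rabbit 59, r was 0.334 (exact permutation p = 0.365, n = 9) and 0.179 (exact permutation p = 0.651, n = 9).

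**Figure D3:**
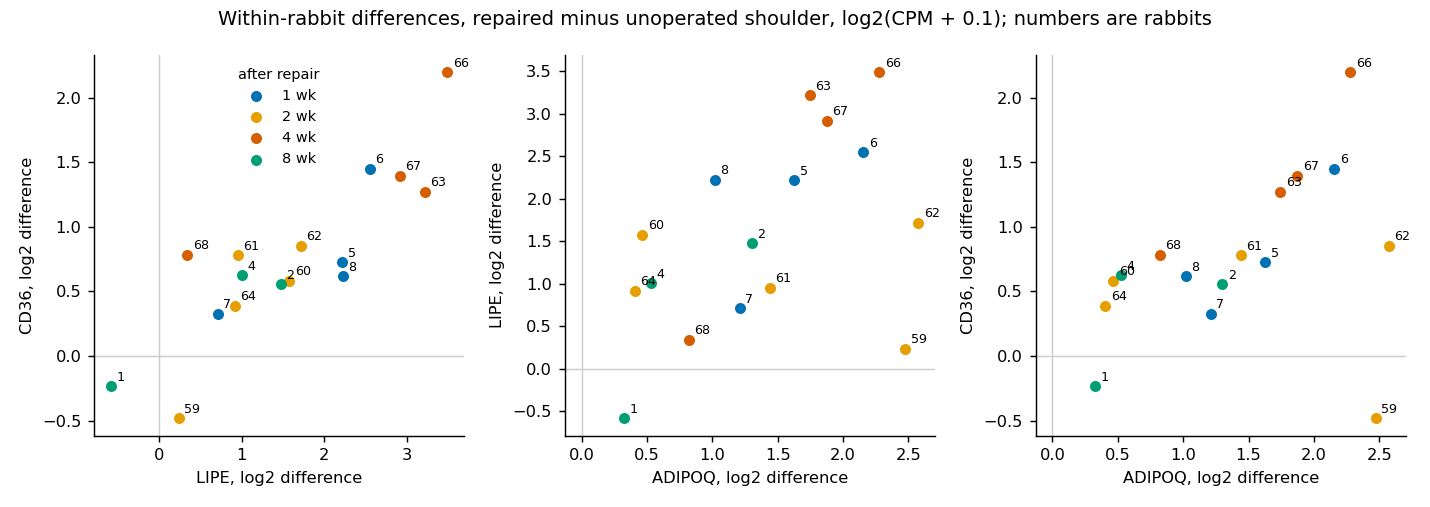
Within-rabbit log2 difference (repaired minus control, TMM CPM + 0.1) of one gene against another for 16 rabbits, coloured by weeks after repair and marked with rabbit numbers. LIPE and CD36 rise together (r = 0.858), while rabbit 59 sits at the lower right of both ADIPOQ panels, high for ADIPOQ and low for LIPE and CD36.

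Within a rabbit, LIPE had the largest ratio of the 3 genes in 10 rabbits and ADIPOQ in 6. CD36 had the largest in 0 and the smallest in 12, and all 3 genes were higher in the repaired shoulder in 14 of 16 rabbits.

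Markers of other cells were read in the same libraries, without a test of their relation to the 3 genes. The number of calls on the marker and pathway lists depended on the fit, and it is read against the share of all genes called higher, which for limma was 6.81, 7.95, 0.0773 and 22.4 percent at 1, 2 and 4 weeks and in the mean effect. With edgeR that share was 6.08, 20, 1.71 and 25.7 percent, with DESeq2 8.31, 20.7, 3.17 and 26.1 percent, and with limma and the rabbit as a block 14.8, 19.2, 1.81 and 26.4 percent.

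Of 6 fibroblast and fibro-adipogenic progenitor markers 5 had an identifier (COL1A1, COL3A1, DCN, PDGFRA and THY1), and their summed level was 471 to 2703 CPM in controls and 503 to 37634.5 CPM in repaired muscle. By week the sum was 1053 to 1393 CPM in controls and 3601 to 13204 CPM after repair at 1 week, 598 to 1002 CPM and 503 to 37634.5 CPM at 2 weeks, 471 to 933 CPM and 638 to 3985 CPM at 4 weeks, and 1315 to 2703 CPM and 2032 to 2808 CPM at 8 weeks. Of these 5 genes, 4 were called higher in the mean effect and 2, COL1A1 and PDGFRA, at 2 weeks. Both edgeR and DESeq2 called 2 of 5 at 1 week and 5 of 5 at 2 weeks and in the mean effect, and the block called 1, 3 and 5. The highest sums at 2 weeks belonged to rabbits 59 (37634.5 CPM) and 62 (10631 CPM), the same rabbits that had the highest ADIPOQ there, and the muscle fibre sum was lowest in them (9157 and 14419 CPM). At 1 week rabbit 6, highest for all 3 genes, had the lowest muscle fibre sum of all libraries used (6367 CPM) and the lowest fibroblast sum of the repaired muscles of that week (3601 CPM). Of the 4 muscle fibre markers, MYOM2, a protein of the sarcomere's M-band, was called lower at 1 week (log2FC -1.67, limma adjusted p = 0.0198) and in the mean effect (-0.57, adjusted p = 0.0481), and DES, the intermediate filament desmin, at 2 weeks (-0.84, adjusted p = 0.0219). Of all genes, 6.88, 7.92 and 17.7 percent were called lower at 1 and 2 weeks and in the mean effect. The median log2FC of the 4 markers was -1.38, -0.53, -0.31 and -0.018 at 1, 2, 4 and 8 weeks. At 1 week the 4 markers disagreed: DES was at 0.005 (limma adjusted p = 0.993), while ATP2A1, MYOM2 and TNNT3 were at -1.19, -1.67 and -1.57. ATP2A1 had the highest average level of the 4 (13.98 log2 CPM) and so weighs most in their sum. With the block 2 of 4 were called lower at 1 week, and in the mean effect edgeR called 0 and DESeq2 2. Rabbit 66, which had the largest ratio of both LIPE (11.4) and CD36 (4.59), went from the highest muscle fibre sum of all libraries used in its control (70033 CPM) to 22526 CPM after repair, and from 471 to 2012 CPM in the fibroblast sum. Other rabbits went differently. Rabbit 7 had the highest fibroblast sum of 1 week (13204 CPM) but the lowest LIPE ratio of that week (1.64). Rabbit 63 had LIPE at 9.40 times its control, while its muscle fibre sum went from 37740 to 40918 CPM and its fibroblast sum from 476 to 3985 CPM. The part of fibroblasts or of muscle fibre content in the values of the 3 genes was not tested.

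Cells that carry CD36 were read from 2 further lists. Of 10 macrophage markers 4 had an identifier (CD163, CSF1R, ITGAM and MRC1), with a summed level of 3.03 to 39.7 CPM in controls and 2.08 to 382 CPM after repair, and 0 of 4 called by limma at any time point or in the mean effect. Higher at an unadjusted limma p under 0.05 were 1 of 4 at 2 weeks and 2 in the mean effect, against 19.5 and 27.8 percent of all genes, while edgeR and DESeq2 called 4 of 4 in both, and limma with the rabbit as a block called 3 of 4 at 2 weeks and 4 of 4 in the mean effect. At 1, 4 and 8 weeks 0 of the 4 were called by either tool or had an unadjusted limma p under 0.05. The highest macrophage sum was that of the repaired muscle of rabbit 59, where CD36 was below every control of its week. The repaired muscle of rabbit 62, with the highest CD36 of that week (362 CPM), had a macrophage sum of 98.6 CPM against 7.86 CPM in its control. At 4 weeks, where CD36 was called, the sums were 3.03 to 10.1 CPM in controls and 2.08 to 27.4 CPM after repair. The sum rose from 3.93 to 27.4 CPM in rabbit 63, from 3.03 to 9.76 in rabbit 66 and from 10.1 to 16.8 in rabbit 67. The CD36 of these rabbits was 2.41, 4.59 and 2.63 times that of their controls. In rabbit 68 the sum fell from 4.99 to 2.08 CPM, with CD163 at 0 after repair and CD36 at 1.72 times its control. Of 12 endothelial markers 6 had an identifier (CDH5, ENG, PTPRB, TCF15, TEK and VWF), with sums of 192 to 372 CPM in controls and 153 to 743 CPM after repair. At 4 weeks the endothelial sum was 224 to 308 CPM in controls and 248 to 322 CPM after repair, and 0 of 6 were called by limma, edgeR or DESeq2 or had an unadjusted limma p under 0.05. At 2 weeks VWF, the von Willebrand factor, was called higher (log2FC 0.84, limma adjusted p = 0.0418), and edgeR and DESeq2 called 2 of 6, VWF and CDH5, and the block 3 of 6. In the mean effect limma called 0 of 6, with 1 at an unadjusted p under 0.05, the block called 0, and edgeR and DESeq2 called VWF. The part of either cell type in the CD36 values was not tested further.

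Other genes of the same pathways were taken from lists, of which few members could be matched to an identifier. Of 15 genes of fatty acid and triglyceride synthesis 5 were matched, in 6 rows, since SCD, the desaturase that makes oleate from stearate, had 2 (ENSOCUG00000001375 and ENSOCUG00000014801). Of these 6 rows 3 were called higher at 1 week, 2 at 2 weeks, 1 at 4 weeks, 0 at 8 weeks and 4 in the mean effect, with 0 lower, beside 6.81, 7.95, 0.0773, 0.00773 and 22.4 percent of all genes called higher. At 1, 2 and 4 weeks and in the mean effect edgeR called 3, 4, 3 and 5 of the 6, DESeq2 4, 4, 3 and 5, and the block 4, 4, 2 and 5. At 8 weeks 2 of the 6 rows had an unadjusted limma p under 0.05, and edgeR, DESeq2 and the block called 0. The median log2FC of the 6 rows was 1.3, 1.25, 1.11 and 0.49 at 1, 2, 4 and 8 weeks, against 0.05, 0.06, 0.05 and 0.01 over all genes. The first SCD row was called at 1, 2 and 4 weeks (log2FC 3.22, 3.60 and 3.73, limma adjusted p = 0.00426, 0.00530 and 0.0135). Among the lipid genes of these lists that had an identifier, it was the only row called by limma at 4 weeks, as CD36 was. Lipid genes without a match were not looked at. The second SCD row was called at 1 and 2 weeks (1.76 and 1.64, adjusted p = 0.00379 and 0.0404). Which reads the 2 rows share is not known.

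PCK2, a mitochondrial enzyme that makes phosphoenolpyruvate, was called at 1 week (log2FC 3.24, limma adjusted p = 0.00465) and in the mean effect (2.59, adjusted p = 5.57e-05). ACLY, which supplies cytosolic acetyl-CoA, was called by limma in the mean effect and at no single time point (0.62 ± 0.17, adjusted p = 0.00535). ACACA, which carries out the next step of fatty acid synthesis, was at 0.29 ± 0.12 (adjusted p = 0.0637). With the rabbit as a block PCK2 was also called at 2 and 4 weeks (2.57 and 3.31, adjusted p = 0.00557 and 0.00292), ACLY at 1 and 2 weeks (0.85 and 0.91, adjusted p = 0.0136 and 0.00777) and ACACA in the mean effect (0.26, adjusted p = 0.0337). LPIN1, the phosphatidate phosphatase that makes diacylglycerol, was at -0.24 ± 0.13 in the mean effect (adjusted p = 0.140), the 1 row of the 6 with a negative value. The within-rabbit differences of PCK2 and LIPE had Pearson's r = 0.710, rank 11 among the 2732 genes compared with LIPE, given without a test. How far the synthesis genes rose together with LIPE within rabbits was not tested further.

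Among genes of fatty acid uptake and of the adiponectin receptors, 1 was called in the mean effect. Of 13 genes of fatty acid uptake and activation 2 were matched, and neither was called at a time point by limma, edgeR or DESeq2 or had an unadjusted limma p under 0.05 there. SLC27A4, a fatty acid transport protein, was called in the mean effect at 0.29 ± 0.11 (limma adjusted p = 0.0401), and with the rabbit as a block also at 1 week (log2FC 0.39, adjusted p = 0.0485). The other, ACSL4, which couples fatty acids to coenzyme A, was at 0.16 ± 0.10 (adjusted p = 0.198). Of 7 genes for adiponectin receptors and their kinase 2 were matched, and 0 were called by limma, edgeR or DESeq2 or had an unadjusted limma p under 0.05: ADIPOR2, a receptor, was at 0.03 ± 0.08 (adjusted p = 0.813) and PRKAA1, a catalytic subunit of AMP-activated kinase, at -0.12 ± 0.12 (adjusted p = 0.452). The 13 genes of adipocyte identity and the 13 of lipolysis and the lipid droplet had 0 matches each and are not analysed here.

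**Figure D4:**
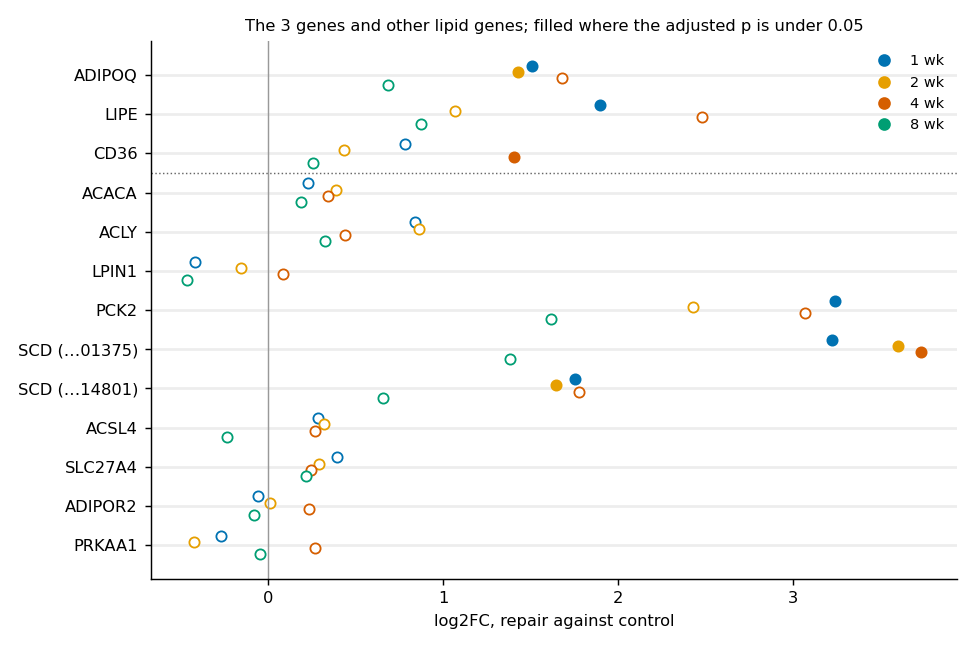
log2FC of repair against control at 1, 2, 4 and 8 weeks (colours) for ADIPOQ, LIPE and CD36, above the dotted line, and for the 10 rows of other lipid genes that had an identifier; filled points have a limma adjusted p under 0.05. At 4 weeks the filled points are CD36 and the first SCD row, and at 8 weeks no point is filled.

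The genes whose within-rabbit differences ran most like those of ADIPOQ, among 2732 genes with a symbol and an average log2 CPM of at least 1, were MAOA (Pearson's r = 0.890 over 16 rabbits), which oxidises monoamines, ITIH5 (0.883), OGN (0.875), a small proteoglycan of the matrix, TMEM123 (0.866) and LIPA (0.864), the acid lipase of lysosomes. OGN and ITIH5 were called at 1 and 2 weeks, OGN at 1.94 and 2.17 (limma adjusted p = 0.0145 and 0.00494) and ITIH5 at 1.3 and 1.43 (adjusted p = 0.0414 and 0.0225), as ADIPOQ was. Of all genes, 6.81 and 7.95 percent were called higher at these times. Both genes were picked for likeness to the ADIPOQ repair differences, so the shared calls are not independent of that choice. LIPA and MAOA were called in the mean effect at 0.56 and 0.55 (limma adjusted p = 0.00339 and 0.00709) and at no single time point. In the mean effect 22.4 percent of all genes were called higher. TMEM123 was called neither in the mean effect (0.54, limma adjusted p = 0.0869) nor at a time point.

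Among those most like LIPE were LYPLAL1 (r = 0.826), NIT1 (0.774), ANP32D (0.742) and TMEM42 (0.727). For CD36 they were NIT1 (0.859), TMEM245 (0.843), ANP32D (0.834), PPIP5K1 (0.833) and TCEAL4 (0.817). NIT1 and ANP32D were on both lists, and neither was called in the mean effect, with values of 0.06 ± 0.07 (limma adjusted p = 0.486) and 0.02 ± 0.07 (adjusted p = 0.830). None of the 5 nearest to CD36 was called in the mean effect. These r values were picked as the highest of 2732, and all genes of a rabbit share its libraries.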

How the data were processed

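Per the labels and the methods, the authors made poly-A selected, stranded libraries, sequenced them as 75 bp single reads, aligned these with STAR 2.5.1a to OryCun2.0 (Ensembl) and deposited 1 table of RSEM 1.3.0 expected counts per gene, unscaled; all 102 values of the 3 genes were whole numbers. In the time codes of the labels the first digit was taken for the 8 weeks of tenotomy and the other for the time since repair. Here 33 libraries were filtered (CPM over 1 in at least 1), scaled by TMM (edgeR 4.0.16) and fitted with limma-voom (limma 3.58.1, R 4.3.3) as 8 groups, with Benjamini-Hochberg adjustment over 12937 genes, the study's stated model. Called with an absolute log2FC also above 1 were 797, 747, 8 and 1 genes at 1, 2, 4 and 8 weeks. The published counts by the same rule are higher at 1, 2 and 4 weeks, with no gene at 8 weeks. The cause of this difference was not tested. As alternatives, edgeR quasi-likelihood and DESeq2 1.42.0 were run on rounded counts. Shoulders of 1 number come from 1 rabbit; their residuals correlated at 0.0252 to 0.434 (median 0.257), and in 15 of 16 rabbits the own control was the closest of its week. On simulated counts over 12278 genes, 56, 52, 37 and 43 of 100 genes with a 2-fold change were found at 1, 2, 4 and 8 weeks, and 89, 88, 82 and 85 of 100 with a 4-fold change. Correlations used 100000 resamples, or all permutations within a library series. No 2 libraries were duplicates (highest r 0.992).

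The genes, lists and tests were chosen with earlier results of these data known. Named beside the 3 genes were the 5 genes of highest r with each, and of each list those called plus the 2 of highest average level; ACACA was added after its value was seen, and 1 gene that this rule names is not reported here. Symbols, those of human orthologs, came from shortened supplementary tables of the study for 3310 identifiers, 1447 of them only from a list of co-expression modules of the study, so which list members could be matched was in part not independent of the data. Columns of the authors' own comparisons in the supplementary tables (fold changes, p-values) were not used.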

Additional observations from a re-analysis of the deposited data

Results flagged for a closer look

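Among 30 groups of 4 or more samples, 2 held a library far from the rest, where chance gives about 1 in 20. CD36 in the control muscle of rabbit 66 at 4 weeks was at 73.0 CPM while the other 3 controls were at 136.6 to 144.5 CPM. ADIPOQ and LIPE were also lowest of their group in that library, at 68.3 and 6.50 CPM. CD36 in the repaired muscle of rabbit 6 at 1 week was at 321.7 CPM while the others were at 162.1 to 180.8 CPM.

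The repair library of rabbit 3 at 8 weeks, which was left out of all comparisons, held LIPE at 324.9 CPM when scaled together with the other 33, against 8.69 CPM in the control muscle of the same rabbit and 8.69 to 25.9 CPM in the 4 controls of 8 weeks. Its LIPE rested on 1442 counts. ADIPOQ was at 178 CPM in it, inside the control range of 120.5 to 223 CPM, and CD36 at 28.6 CPM, below the controls at 114 to 131 CPM. The library's values are given as they stand, since the library was set aside on quality.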

How the results depend on the processing

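For 24 results of the 3 genes, 273 values under up to 12 settings were compared with those reported, and 32 changed their side of the threshold or their sign. With the rabbit as replicate block, 4 results gained a call: CD36 at 1 week (0.77), LIPE at 2 weeks (1.11), and ADIPOQ and LIPE at 4 weeks (1.69 and 2.70, log2FC); the block changed no other call. Several settings called CD36 at 1 week: median-ratio size factors (0.77), total counts (1.21), CPM over 1 in at least 5 libraries (0.80), edgeR (0.83), DESeq2 (0.82), the estimated rabbit correlation (0.78), sample quality weights (0.65) and the time point alone (0.77). ADIPOQ and LIPE at 4 weeks were called with edgeR (1.63 and 2.82), DESeq2 (1.62 and 2.80), the rabbit correlation (1.68 and 2.48) and quality weights (1.47 and 2.93). LIPE at 2 weeks was called with DESeq2 (1.14), and with quality weights CD36 at 2 weeks (0.62) and the control differences of ADIPOQ (0.58) and CD36 (-0.34) were. Calls were lost with all 34 libraries for ADIPOQ (1.5) and LIPE (1.91) at 1 week and CD36 at 4 weeks (1.39), and with the time point alone for ADIPOQ at 2 weeks (1.41) and CD36 at 4 weeks (1.40). The sign turned for CD36 at 8 weeks with all 34 libraries (-0.35), where LIPE was at 1.70 (adjusted p = 0.365) against 0.87, and for the ADIPOQ difference of 4 minus 2 weeks with edgeR (-0.23) and DESeq2 (-0.24). The number of genes called over the whole table moved too: 1771 at 1 week (294 with all 34 libraries to 4179 with quality weights), 2053 at 2 weeks (5 with the time point alone to 4088 with the block), 16 at 4 weeks (0 with the time point alone to 1032 with quality weights) and 1 at 8 weeks (0 with CPM over 1 in at least 5 libraries to 84 with quality weights). The causes were not tested.

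With 1 library left out in turn, the log2FC ran from 1.24 to 1.84 for ADIPOQ, 1.55 to 2.17 for LIPE and 0.56 to 0.89 for CD36 at 1 week, 1.10 to 1.76 for ADIPOQ at 2 weeks, and 1.42 to 1.85, 2.06 to 3.20 and 1.17 to 1.53 for ADIPOQ, LIPE and CD36 at 4 weeks. At 8 weeks it ran from 0.50 to 0.82 for ADIPOQ, 0.34 to 1.49 for LIPE and 0.095 to 0.58 for CD36. The ADIPOQ difference of 4 minus 2 weeks ran from -0.074 to 0.59. The ADIPOQ and LIPE relation was weaker with a pseudocount of 1 CPM (r = 0.500), with time point means removed (0.403) and in the 2-week and 4-week libraries (0.334); that of ADIPOQ and CD36 was stronger in the 1-week and 8-week libraries (0.830), without rabbit 59 (0.742) and without rabbits 59 and 62 (0.838). Of the 5 genes most like each gene, 1 (OGN, for ADIPOQ) was among the 5 by r over 33 libraries, and 0 for LIPE and CD36. In 4-week controls LIPE rested on 58 to 174 counts, ADIPOQ on 609 to 1593 and CD36 on 651 to 1394. The part of depth in the spread of LIPE was not tested.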

Other observations

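Ranked by r over the log2 CPM of all 33 libraries, which adds the differences between groups, the genes nearest to ADIPOQ were ARRB1 (r = 0.904), TGFBR2 (0.885), a receptor for TGF-beta, CHRDL1 (0.884), OGN (0.874) and EBF2 (0.868), a transcription factor of adipocyte precursors. Nearest to LIPE were CDO1 (0.870), MST1R (0.855), PCK2 (0.837), IGSF8 (0.832) and NR1H3 (0.827), the liver X receptor alpha, and nearest to CD36 were TMEM135 (0.827), ANGPT1 (0.791), ZC2HC1A (0.761), TSPAN12 (0.744) and CPSF3 (0.744). In the mean effect EBF2 was at 1.23 ± 0.23 (limma adjusted p = 0.000284), NR1H3 at 0.88 ± 0.19 (adjusted p = 0.000917) and TMEM135 at 0.85 ± 0.11 (adjusted p = 1.49e-05). These correlations are descriptions over libraries that share rabbits, groups and library series.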
